A study of Mus musculus with 10 samples.

Results

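The genes described here are 10 members of the bone morphogenetic protein (BMP) pathway: the receptor genes Bmpr1a, Bmpr2 and Acvr1, the ligand genes Bmp4 and Bmp8b, the inhibitory SMAD genes Smad6 and Smad7, and the target genes Id1, Id2 and Id3. They were taken by symbol from a table of 23969 symbols, where each of the 10 had 1 row. A filter on low values, at least 1 FPKM in at least 2 libraries, was passed by 11454 of all symbols and by 8 of the 10 members; Bmp4 and Bmp8b did not pass. Between R-spondin gain and loss of function, Id2 was higher and Smad7 was lower in the gain-of-function cells, while Id1, Id3, Smad6 and the 3 receptor genes did not pass the test.

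BMP ligands bind pairs of type I and type II receptors, which phosphorylate SMAD1, SMAD5 and SMAD9; these enter the nucleus with SMAD4 and switch on target genes such as the Id genes. In the small intestine BMP signalling is high on the villus and low at the crypt base, where antagonists from the surrounding mesenchyme hold it back and Wnt signalling is high. BMP and Wnt signalling thus oppose each other along the crypt-villus axis. R-spondins strengthen Wnt signalling by keeping its receptors on the cell surface.

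RNA was sequenced from epithelial cells of the proximal jejunum of Lgr5-eGFP-IRES-CreER mice, which carry the reporter in the Lgr5 locus, after sorting of GFP-positive cells. All mice had received adenovirus by vein: Ad Rspo1 (3 libraries, labelled Rspo GOF, gain of function), Ad LGR5 ECD (3 libraries, the extracellular domain of the R-spondin receptor LGR5, labelled Rspo LOF, loss of function) or Ad Fc (2 libraries, the control). The labels state no age, sex, strain background or time after injection. The 2 control columns state neither the sort nor the sample. They are read as GFP-positive Ad Fc cells because the series text gives 2 Ad Fc replicates and 2 sample titles say positive. Another 2 Ad Fc titles say negative. The samples are called biological replicates, but nothing says how many mice went into each.

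The values were FPKM, which scales fragments by transcript length and library size, so sequencing depth is unknown. Between 13417 and 14197 symbols were above 0 in 7 libraries, against 11485 in LGR5-ECD replicate 3, so low values in that library are the least certain. Control 2 had the lowest FPKM sum, 189335 against 227113 to 275937 in the others, and a median-ratio scale factor of 0.862 against 0.968 to 1.12. The sorted cells carried the epithelial markers Epcam (97.3 to 172.7 FPKM) and Vil1 (65.6 to 137.2 FPKM). The stem cell genes Lgr5 and Olfm4 averaged 5.14 ± 2.84 and 113.5 ± 119.1 FPKM in LGR5-ECD cells (SD, n = 3), 31.3 ± 13.2 and 531.5 ± 338.1 FPKM in controls (SD, n = 2) and 103.1 ± 8.53 and 1391 ± 74.7 FPKM in Rspo1 cells (SD, n = 3). In the same order Krt20, a gene of differentiated epithelium, averaged 38.2 ± 2.33, 14.97 ± 2.00 and 4.36 ± 0.336 FPKM. Summed over 8 enterocyte markers, levels were 118 to 148 FPKM in Rspo1, 219 to 352 in control and 552 to 715 in LGR5-ECD libraries. In that order the sum of 6 goblet markers was 284 to 447, 242 to 443 and 523 to 1520 FPKM. The goblet sum joins genes that differed in direction: from control to Rspo1, 2 had a log2 change above 0 and 4 below 0. Against the control the widest gap was in 5 Paneth markers, summed at 17.1 FPKM in control 2 and 559 FPKM in control 1, 1830 to 4240 FPKM in LGR5-ECD and 1430 to 2440 FPKM in Rspo1 libraries. The 6 enteroendocrine markers summed to 8.21 to 11.7 FPKM in controls, 14.4 to 46.7 FPKM in LGR5-ECD and 22.9 to 31.5 FPKM in Rspo1 libraries. They too differed in direction: from LGR5-ECD to Rspo1, 2 had a log2 change above 0 and 4 below 0. Lgr5, Olfm4, Krt20 and the enterocyte sum did not overlap between any of the groups. The goblet sums overlapped between Rspo1 and control, and the Paneth and enteroendocrine sums between Rspo1 and LGR5-ECD. The part of these marker levels in the results on the BMP genes was not tested. In sorted bulk samples, fewer cells expressing a gene and less of its RNA per cell cannot be told apart.

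The Id genes encode helix-loop-helix proteins that lack a DNA-binding region and sequester E proteins, the partners of tissue-specific transcription factors. Id2 was the Id gene that rose with Rspo1. It stood at 8.37, 5.50 and 6.46 FPKM in Rspo1 replicates 1 to 3, at 2.82, 1.33 and 2.78 FPKM in LGR5-ECD replicates 1 to 3, and at 3.32 and 2.71 FPKM in the controls. Every Rspo1 library was above every other library, and the ranges of the other 2 groups overlapped. The group means were 6.77 ± 1.46, 2.31 ± 0.845 and 3.01 ± 0.428 FPKM (SD, n = 3, 3 and 2). Id2 rose by 1.25 on the log2(FPKM + 1) scale from LGR5-ECD to Rspo1 (SE 0.28, limma adjusted p = 0.0198), a scale that understates changes of low genes. The difference between Rspo1 and control did not pass (0.94, SE 0.31, adjusted p = 0.160), nor did that between LGR5-ECD and control (-0.31, SE 0.31, adjusted p = 0.646).

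The call for Id2 was lost without any one of the Rspo1 libraries. Its adjusted p was 0.0920, 0.0538 and 0.0748 without Rspo1 replicate 1, 2 and 3, and 0.0617 without LGR5-ECD replicate 2, with log2 changes of 1.02 to 1.37, and it was 0.0526 without the filter. The change kept its sign in all 16 alternatives run.

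Id1 and Id3, the Id genes most often used as readouts of BMP signalling, had their highest values in LGR5-ECD cells. Id1 was at 12.6, 21.7 and 14.9 FPKM in the LGR5-ECD libraries, 11.6, 6.85 and 12.02 FPKM in the Rspo1 libraries and 10.9 and 11.1 FPKM in the controls. The LGR5-ECD values lay above all others, by a narrow margin for replicate 1, and the Rspo1 values spread around the control. Its log2 change from LGR5-ECD to Rspo1 was -0.64 (SE 0.26, 95% interval -1.22 to -0.064), which did not pass after adjustment (limma adjusted p = 0.170). Id3 was at 8.27, 16.2 and 17.4 FPKM in LGR5-ECD libraries, 10.5, 5.42 and 13.0 FPKM in Rspo1 libraries and 10.97 and 9.43 FPKM in the controls. Here the 3 groups overlapped, and the log2 change from LGR5-ECD to Rspo1 was -0.50 (95% interval -1.24 to 0.24, limma adjusted p = 0.416). Rspo1 replicate 2 had the lowest value of the series for both genes. Against the control, neither gene passed in either treated group (adjusted p = 0.407 to 0.876).

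Because FPKM is scaled by transcript length, the 3 genes can be set beside each other. Their summed level was 24.2 ± 1.27 FPKM in the control (SD, n = 2), 32.6 ± 8.05 in LGR5-ECD (SD, n = 3) and 26.5 ± 7.58 in Rspo1 cells (SD, n = 3). Id2 made up 27.5%, 30.9% and 20.5% of that sum in the Rspo1 libraries, 11.9%, 3.41% and 7.91% in the LGR5-ECD libraries and 13.2% and 11.7% in the controls. The share of Id2 in every Rspo1 library was above that in every other library, while the summed levels overlapped between Rspo1 and LGR5-ECD. The ratio of Id2 to Id1 ran from 0.537 to 0.802 in Rspo1 libraries, 0.0616 to 0.224 in LGR5-ECD libraries and 0.244 to 0.306 in controls. These shares describe the members and carry no test.

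**Figure D1:**
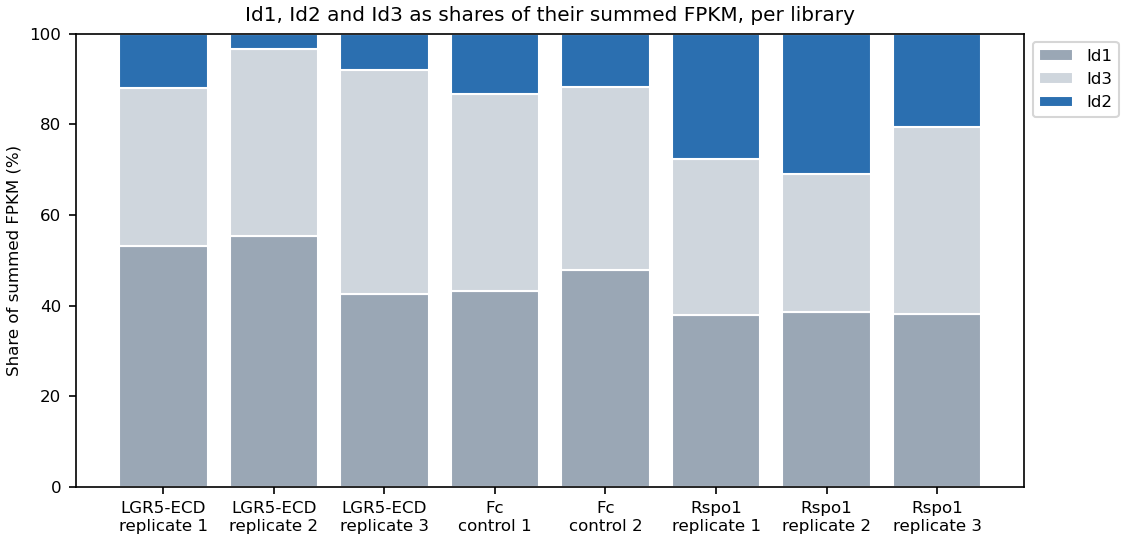
Share of the summed FPKM of Id1, Id2 and Id3 (vertical axis, percent) taken by each gene in each of the 8 libraries. Id2, the top segment, takes 20.5% to 30.9% in the Rspo1 libraries and at most 13.2% in the others.

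The promoter windows of Id2 and Id3 are shown because the first gene rose and the second did not pass, and that of Smad6 because it holds a palindromic SMAD motif. RefSeq windows (GRCm38.p6, another build than the mm9 named for the deposited data) run from 250 bases before to 50 after the gene start. They were found for 8 of the 10 members. Id1 and Smad7 had none, so the called gene Smad7 could not be searched. The motifs were searched on both strands and are in capitals where they match: GGCGCC, a GC-rich SMAD motif, GTCTAGAC, the palindromic SMAD motif, and CTTTGA, the core of the TCF/LEF motif. The Id2 window lies at chr12:25096043-25096342 on the minus strand, that of Id3 at chr4:136143572-136143871 on the plus strand and that of Smad6 at chr9:64022010-64022309 on the minus strand.
Id2: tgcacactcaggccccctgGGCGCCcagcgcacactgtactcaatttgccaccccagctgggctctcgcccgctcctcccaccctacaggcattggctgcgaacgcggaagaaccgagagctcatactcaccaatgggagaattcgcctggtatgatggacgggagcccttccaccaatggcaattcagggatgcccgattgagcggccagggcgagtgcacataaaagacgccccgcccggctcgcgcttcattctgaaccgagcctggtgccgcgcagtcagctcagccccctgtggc
Id3: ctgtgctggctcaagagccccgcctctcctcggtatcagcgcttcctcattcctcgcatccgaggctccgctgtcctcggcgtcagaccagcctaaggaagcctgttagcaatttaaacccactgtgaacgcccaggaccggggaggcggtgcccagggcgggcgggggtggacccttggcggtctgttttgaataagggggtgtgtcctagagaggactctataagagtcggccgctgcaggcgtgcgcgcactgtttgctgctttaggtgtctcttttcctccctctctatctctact
Smad6: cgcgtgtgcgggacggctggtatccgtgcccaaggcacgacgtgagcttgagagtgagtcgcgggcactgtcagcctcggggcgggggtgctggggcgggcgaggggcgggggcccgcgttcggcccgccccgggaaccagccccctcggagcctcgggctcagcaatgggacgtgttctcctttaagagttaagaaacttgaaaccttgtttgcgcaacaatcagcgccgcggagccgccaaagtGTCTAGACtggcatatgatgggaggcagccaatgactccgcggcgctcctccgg
Id2 holds GGCGCC at position -231 from the gene start, as do Bmpr1a at -198 and Bmpr2 at -105. Of 32851 RefSeq windows of this length, 11.9% hold that motif. GTCTAGAC begins at -4 in Smad6 and occurs in 0.213% of windows. The Id3 window holds none of the 3 motifs, and CTTTGA, found in 16.0% of windows, is in none of the 8 member windows. A match is a string of letters and was not measured as a binding site here.

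SMAD7 and SMAD6 are inhibitory SMADs that are switched on by the pathway and block it in turn, SMAD6 mainly for BMP signals and SMAD7 for TGF-beta signals as well. Smad7 was lower in Rspo1 than in LGR5-ECD cells. It was at 1.81, 1.38 and 1.24 FPKM in the Rspo1 libraries, 3.79, 3.18 and 3.86 FPKM in the LGR5-ECD libraries and 1.99 and 1.85 FPKM in the controls. The 3 groups did not overlap, with the control between the others and much nearer to Rspo1. Smad7 fell by 0.90 on the log2(FPKM + 1) scale from LGR5-ECD to Rspo1 (SE 0.24, limma adjusted p = 0.0438; means 3.61 ± 0.377 and 1.48 ± 0.298 FPKM, SD, n = 3 each). Between LGR5-ECD and control the log2 change was 0.65 (95% interval 0.064 to 1.24, adjusted p = 0.255), and between Rspo1 and control it was -0.24 (95% interval -0.84 to 0.35, adjusted p = 0.684).

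This call was close to the threshold and did not survive the loss of any treated library. Smad7 had an adjusted p of 0.0864, 0.148 and 0.168 without Rspo1 replicate 1, 2 and 3, and of 0.104, 0.0788 and 0.0692 without LGR5-ECD replicate 1, 2 and 3. The log2 change stayed between -1.24 and -0.83 over 15 alternatives, and 6 of these kept the call. Smad6 was at 1.32, 0.623 and 0.470 FPKM in the Rspo1 libraries and 1.78 and 0.351 FPKM in the controls. In the LGR5-ECD libraries it was at 1.13 and 0.900 FPKM and listed at 0 in replicate 3, the library with the fewest symbols detected. Its groups overlapped fully, and its log2 change from LGR5-ECD to Rspo1 was 0.15 (95% interval -0.72 to 1.02, limma adjusted p = 0.861), with a sign that depended on the library left out.

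Bmpr1a is the type I receptor through which most BMP signals reach the intestinal epithelium. It had the highest level of the member receptors in every library. It was at 16.5, 16.9 and 14.7 FPKM under Rspo1, 14.4, 12.3 and 13.4 FPKM in LGR5-ECD and 12.4 and 5.32 FPKM in the control libraries. All Rspo1 values were above all LGR5-ECD values, though by little, and the controls differed from each other more than the treated groups did. The log2 change from LGR5-ECD to Rspo1 was 0.25 (95% interval -0.34 to 0.83, limma adjusted p = 0.636). Against the control it was 0.88 for Rspo1 (adjusted p = 0.166) and 0.64 for LGR5-ECD (adjusted p = 0.306). With control 1 left out, these became 1.43 (adjusted p = 0.0189) and 1.18 (adjusted p = 0.0492), where the only control is control 2, the library with the low FPKM sum, assumed to vary like the other groups. With control 2 left out they were 0.34 (adjusted p = 0.718) and 0.093 (adjusted p = 0.912).

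Bmpr2, the type II receptor dedicated to BMP ligands, was at 6.51, 8.75 and 7.93 FPKM under Rspo1, 4.99, 5.38 and 4.65 FPKM in LGR5-ECD and 4.21 and 3.30 FPKM in control libraries. The 3 groups did not overlap and stood in the order Rspo1, LGR5-ECD, control. None of the differences passed: the log2 changes were 0.53 for Rspo1 over LGR5-ECD (95% interval 0.051 to 1.01, limma adjusted p = 0.172), 0.87 for Rspo1 over control (95% interval 0.34 to 1.41, adjusted p = 0.105) and 0.34 for LGR5-ECD over control (adjusted p = 0.504). Acvr1, a second type I receptor for BMPs, ranged from 2.67 to 4.32 FPKM in Rspo1, 2.26 to 4.99 FPKM in LGR5-ECD and 2.10 to 3.24 FPKM in control libraries. Those ranges overlapped, and the log2 change from LGR5-ECD to Rspo1 was -0.0086 (95% interval -0.66 to 0.64, limma adjusted p = 0.992). The 3 receptors together summed to 27.3 ± 1.95 FPKM in Rspo1, 22.0 ± 0.872 in LGR5-ECD (SD, n = 3 each) and 15.3 ± 4.81 in control cells (SD, n = 2).

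**Figure D2:**
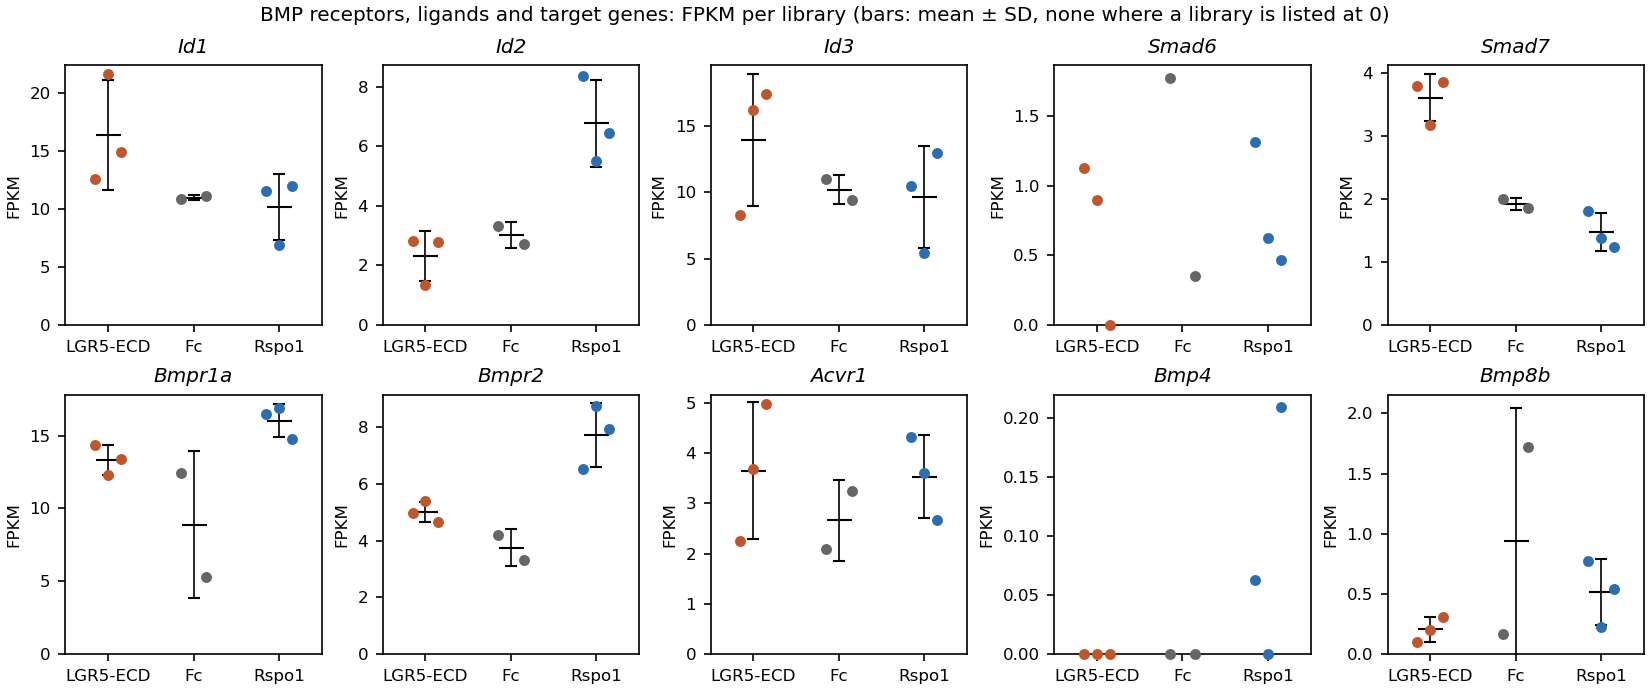
FPKM (vertical axes, each starting at 0) of the 10 members in each library, by group; points are libraries and bars are mean ± SD, left out where a library is listed at 0. Id2 is highest in the 3 Rspo1 libraries and Smad7 in the 3 LGR5-ECD libraries, and Bmp4 is above 0 in 2 libraries only.

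The ligand genes among the members were at low levels. Bmp4, which in the intestine is made mainly by mesenchyme, was above 0 in 2 of the 8 libraries, at 0.0625 and 0.210 FPKM in Rspo1 replicates 1 and 3, and listed at 0 in the others. Of the 13 mesenchymal markers in the table, 6 were at 0 in every library, Col1a1 and Pdgfra among them. Others were detected, and Pdgfrb (0.276 to 1.53 FPKM) and Tagln (0 to 2.57 FPKM) passed the filter. The summed level of all 13 was 1.28 to 4.25 FPKM. Bmp8b was at 0.777, 0.226 and 0.545 FPKM under Rspo1, 0.103, 0.204 and 0.311 FPKM in LGR5-ECD and 0.164 and 1.72 FPKM in control libraries. Only control 2 reached 1 FPKM, and the groups overlapped. Bmp8a, a near copy of Bmp8b, was at 0 and 0.859 FPKM in controls 1 and 2, 0.176, 0.623 and 1.17 FPKM in the LGR5-ECD libraries and 0.0697, 0 and 0.193 FPKM in the Rspo1 libraries. It was thus highest in LGR5-ECD replicate 3, where Bmp8b was at 0.311 FPKM, and the split of reads between such close copies is uncertain.

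In the comparison of Rspo1 with LGR5-ECD, 2 of the 8 tested members were called, 1 higher and 1 lower, where 8.45% of all tested genes were called, 4.92% higher and 3.54% lower. The groups did not overlap for 5 members (Id1, Id2, Smad7, Bmpr1a and Bmpr2), against a background of 31.0% of tested genes. The median log2 change of the 8 was 0.071, and that of all genes 0.085. Against the control 0 of 8 members were called by limma in either treated group, where the backgrounds were 1.25% for Rspo1 (0.672% higher, 0.576% lower) and 0.716% for LGR5-ECD (0.445% higher, 0.271% lower). The ranges did not overlap for 4 members in Rspo1 against control (background 38.2%) and 3 in LGR5-ECD against control (background 30.9%). At an unadjusted p under 0.05 there were 3 of 8 for Rspo1 (Id2, Bmpr1a and Bmpr2, all higher), where 17.1% of all tested genes were, and 1 of 8 for LGR5-ECD (Smad7, higher), where 16.9% were. Between Rspo1 and LGR5-ECD there were 4 of 8 (Id1, Id2, Smad7 and Bmpr2), with 22.9% of all tested genes. Both comparisons use the same 2 control libraries. As deposited, the median log2 change of all genes between Rspo1 and control was 0.16, against 0.011 under median-ratio scaling.

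**Figure D3:**
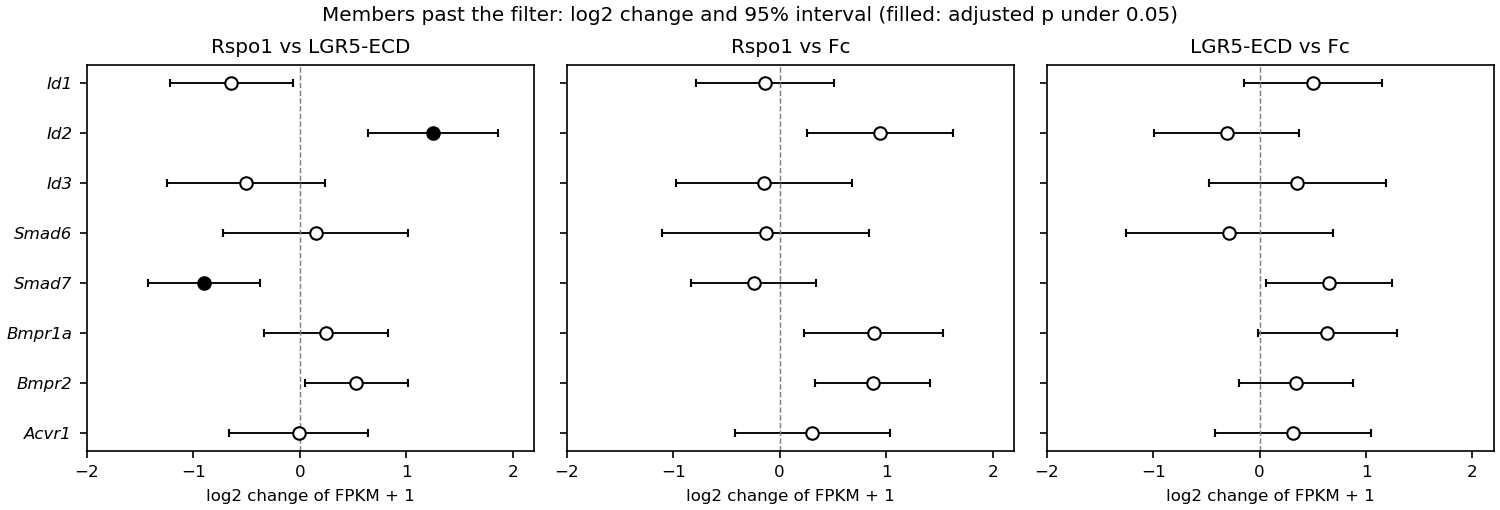
Log2 change of FPKM + 1 (horizontal axes) with its 95% interval for the 8 members past the filter, in the 3 comparisons; filled points have an adjusted p under 0.05. Id2 (1.25) and Smad7 (-0.90) in Rspo1 against LGR5-ECD are the filled points.

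The wider pathway was read from lists of ligands, receptors, SMADs, antagonists, modifiers, targets, E proteins and villus tip genes, 106 distinct genes beside the members. Of these, 50 passed the filter and 12 were called between Rspo1 and LGR5-ECD, 8 higher and 4 lower in Rspo1. That is 24.0% of the tested genes, beside 8.45% of all genes. Over all tested genes 4.92% were called higher and 3.54% lower, which is the background for each list below. The lists were chosen with earlier results of these data known, so their share is not a test of the pathway. The villus tip list, with Apoa4 and Creb3l3, gave 2 of the 4 lower calls.

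Of 23 ligand genes 3 were tested, 1 higher and 1 lower. Bmp7, a BMP ligand, was at 27.6, 33.0 and 32.3 FPKM under Rspo1, 9.91, 10.1 and 7.83 FPKM in LGR5-ECD and 15.6 and 13.7 FPKM in control libraries. The groups did not overlap, with the control in the middle. Bmp7 rose by 1.64 (SE 0.19, limma adjusted p = 0.000671) from LGR5-ECD to Rspo1. Bmp3, an atypical member that in mouse bone acts against other BMPs, went the other way, at 5.55, 7.81 and 4.84 FPKM under Rspo1, 15.6, 30.3 and 21.7 FPKM in LGR5-ECD and 11.8 and 6.19 FPKM in control libraries. The Rspo1 and LGR5-ECD ranges were far apart, and Bmp3 fell by 1.71 (SE 0.30, limma adjusted p = 0.00701). The ratio of Bmp7 to Bmp3 was 4.23 to 6.67 in Rspo1, 1.32 and 2.21 in control and 0.335 to 0.636 in LGR5-ECD libraries. Bmp2 did not pass (-0.71, SE 0.28, adjusted p = 0.150).

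Of 16 further receptor and co-receptor genes 7 were tested, and 2 rose and 0 fell. Rgmb encodes a membrane-anchored BMP co-receptor, and it reached 131.7, 113.9 and 127.0 FPKM in Rspo1 libraries, higher than any of the 3 receptors above. It was at 30.8, 19.6 and 15.2 FPKM in LGR5-ECD and 77.6 and 40.5 FPKM in control libraries, so that the 3 groups did not overlap. Rgmb rose by 2.51 from LGR5-ECD to Rspo1 (SE 0.29, limma adjusted p = 0.000685), and against the control the change of 1.13 did not pass (adjusted p = 0.113). Tgfbr2, the type II receptor for TGF-beta, averaged 14.4 ± 2.75 FPKM with Rspo1 against 3.50 ± 1.56 FPKM with LGR5-ECD (SD, n = 3 each) and rose by 1.83 (SE 0.29, limma adjusted p = 0.00408). Neo1, the gene of neogenin, which binds RGM proteins, was at 30.6 ± 0.692 and 22.8 ± 0.744 FPKM and did not pass (0.41, adjusted p = 0.380).

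The SMADs that carry the signal did not pass in any comparison. Smad1 averaged 34.0 ± 2.39 FPKM with Rspo1 against 33.9 ± 4.47 FPKM with LGR5-ECD (SD, n = 3 each; log2 change 0.0094, SE 0.25, limma adjusted p = 0.989), with a sign that turned under either scaling. Smad4, the shared partner, was the most abundant at 94.5 ± 11.1 and 81.5 ± 4.08 FPKM (0.21, adjusted p = 0.584). Smad5 was at 12.5 ± 1.77 and 9.48 ± 1.72 FPKM (0.38, adjusted p = 0.357). Smad3, which serves TGF-beta and activin receptors, was at 16.7 ± 1.84 and 11.6 ± 4.74 FPKM (0.55, adjusted p = 0.271), and Smad2, of the same class, at 4.07 ± 0.492 and 3.49 ± 0.793 FPKM (0.19, adjusted p = 0.702). Smad9 did not pass the filter. Against the control, the log2 changes of all 5 tested SMADs were above 0 in both treated groups and none passed (limma adjusted p = 0.173 to 0.751). The median log2 change of all genes was also above 0, at 0.156 for Rspo1 and 0.0545 for LGR5-ECD. Without control 2 the change of Smad1 turned to -0.10 for Rspo1 and -0.11 for LGR5-ECD, and Smad3 turned for LGR5-ECD.

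Of 15 antagonist genes 2 were tested, and 8 were at 0 in all libraries, Nog and Grem1 among them. Fstl1, a secreted follistatin-like protein, was at 6.48, 5.89 and 6.61 FPKM in Rspo1 and 4.70 and 1.74 FPKM in control libraries. It was at 0.483 FPKM in LGR5-ECD replicate 1 and listed at 0 in the other 2. On the log2(FPKM + 1) scale Fstl1 rose by 2.68 (SE 0.32, limma adjusted p = 0.000893), a size that depends on the pseudocount (5.16 with 0.1). Twsg1 did not pass (0.55, adjusted p = 0.254). Of 18 intracellular modifiers, all tested, 3 rose and 0 fell. The homeobox co-repressors of SMADs Tgif1 (83.7 ± 6.99 against 40.0 ± 3.83 FPKM, SD, n = 3 each) and Tgif2 (6.23 ± 1.58 against 1.80 ± 0.507 FPKM) rose by 1.05 and 1.36 (limma adjusted p = 0.0133 and 0.0215). Wwp1, a ubiquitin ligase that works with SMAD7 on TGF-beta receptors, was at 9.46 ± 1.03 against 3.72 ± 1.33 FPKM and rose by 1.18 (adjusted p = 0.0195).

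Of 18 other genes known as BMP targets in various tissues, 5 were tested, with 1 higher and 1 lower. Atoh8, a basic helix-loop-helix factor, was at 6.04, 4.86 and 9.28 FPKM in Rspo1, 4.67 and 4.06 FPKM in control, and 0.941 and 0.118 FPKM in LGR5-ECD replicates 1 and 2, with replicate 3 listed at 0. Atoh8 rose by 2.54 from LGR5-ECD to Rspo1 (SE 0.32, limma adjusted p = 0.00129; 4.54 with a pseudocount of 0.1). Cdkn1a, the gene of a cell cycle inhibitor that many pathways switch on, fell by 2.37 (SE 0.25, adjusted p = 0.000435), from 35.2 ± 8.99 to 5.95 ± 1.32 FPKM (SD, n = 3 each). Klf4, a factor of differentiated cells, did not pass (-0.64, adjusted p = 0.207). Msx1, Msx2 and Id4 were each under 0.5 FPKM in every library. The E protein genes, whose products bind the Id proteins, gave 0 calls of 3 by limma in each comparison (1 at an unadjusted p under 0.05 in each comparison with Rspo1, 0 between LGR5-ECD and control, where all tested genes had 22.9% and 17.1% for the comparisons of Rspo1 with LGR5-ECD and control, and 16.9% for the last). Tcf3 was at 36.1 to 52.3 FPKM, Tcf12 at 20.9 to 34.8 FPKM and Tcf4 at 3.34 to 7.49 FPKM over the 8 libraries.

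Of 10 genes of the villus tip, 8 were tested and 2 were lower in Rspo1 than in LGR5-ECD cells. Apoa4, an apolipoprotein of fat absorption, fell by 1.79 (SE 0.41, limma adjusted p = 0.0236), from 116.2 ± 13.0 to 33.1 ± 5.60 FPKM (SD, n = 3 each). Creb3l3, a membrane-bound transcription factor of lipid genes, fell by 2.42 (SE 0.46, adjusted p = 0.010004), from 14.2 ± 7.62 to 1.62 ± 0.578 FPKM. Bmp7, Bmp3, Rgmb, Tgfbr2, Fstl1, Atoh8, Cdkn1a and Creb3l3 kept an adjusted p under 0.05 in all 16 alternatives. Calls were lost for Tgif1 without Rspo1 replicate 1 or 3 (0.0578 and 0.0557) and for Wwp1 without Rspo1 replicate 1, 2 or 3 (0.0789, 0.0897 and 0.0589). For Tgif2 they were lost without LGR5-ECD replicate 1 (0.0611) and Rspo1 replicates 1, 2 and 3 (0.0599, 0.106 and 0.0632), and for Apoa4 without LGR5-ECD replicate 1 (0.0564) and Rspo1 replicates 1, 2 and 3 (0.0572, 0.0945 and 0.0774). Without the filter Tgif2 and Apoa4 had 0.0612 and 0.0841.

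**Figure D4:**
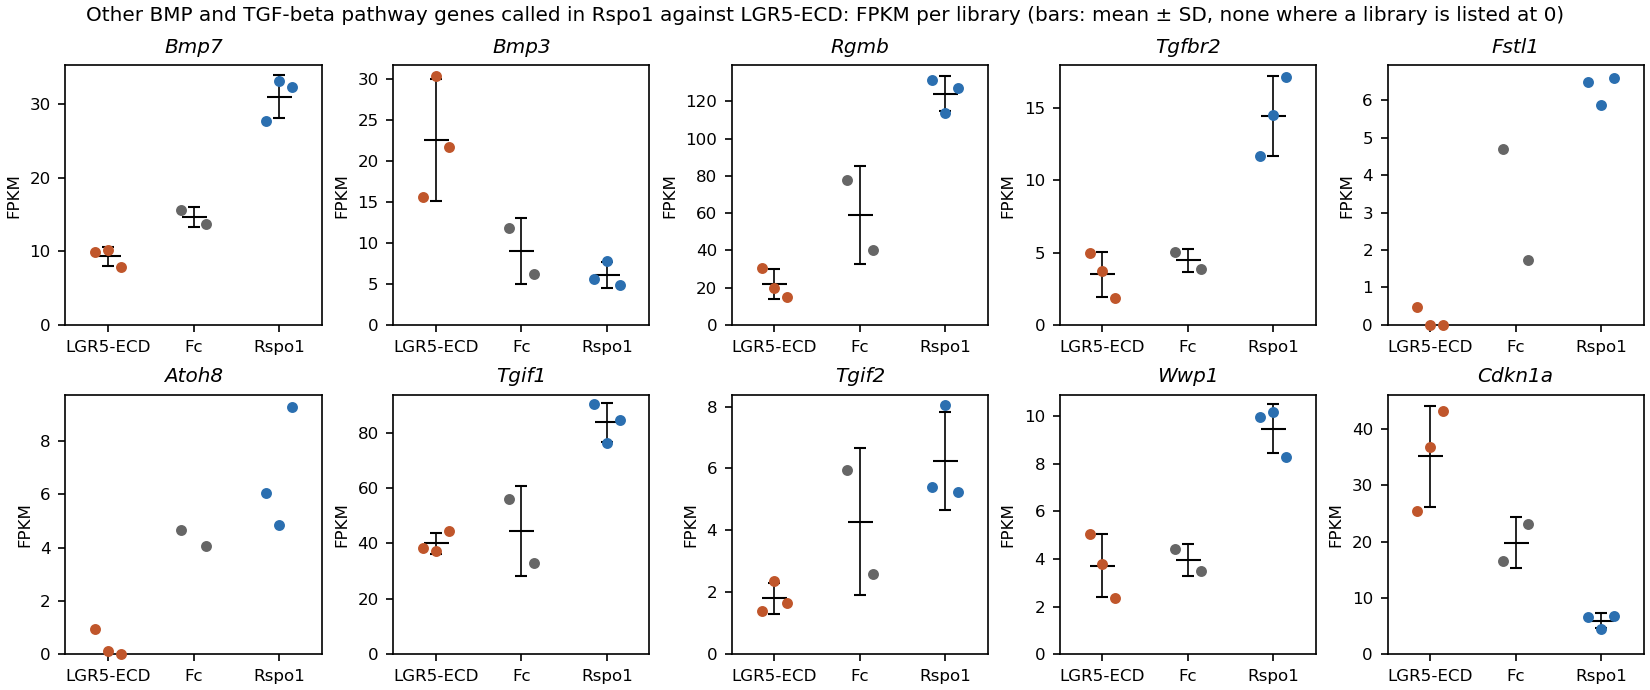
FPKM (vertical axes, each starting at 0) per library of 10 further pathway genes called between Rspo1 and LGR5-ECD, by group; points are libraries and bars are mean ± SD, left out where a library is listed at 0. Rgmb reaches 113.9 to 131.7 FPKM in Rspo1 libraries against 15.2 to 30.8 in LGR5-ECD libraries, and Bmp3 and Cdkn1a are the genes that are lower in Rspo1.

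Against the control, 4 of the 50 pathway genes were called for Rspo1, where 1.25% of all tested genes were. The count was 8 without control 1, 0 without control 2 or Rspo1 replicate 1 or 3, and 1 without Rspo1 replicate 2. Bmp7 rose by 1.03 (SE 0.21, limma adjusted p = 0.0460), Fos by 2.63 (SE 0.41, adjusted p = 0.0185) and Junb by 1.31 (SE 0.24, adjusted p = 0.0314), and Cdkn1a fell by 1.59 (SE 0.28, adjusted p = 0.0292). For LGR5-ECD 2 of 50 were called, where 0.716% of all tested genes were. That count was 4 without LGR5-ECD replicate 1, 0 without either control, LGR5-ECD replicate 2 or Rspo1 replicate 1, and 1 without any other library. Fos rose by 2.80 (SE 0.41, adjusted p = 0.0250) and Atoh8 fell by 2.05 (SE 0.36, adjusted p = 0.0442). Fos and Junb are counted here through the villus tip list. They are immediate early genes that also respond to tissue dissociation. Of 12 such genes, 9 were called higher for Rspo1 and 4 for LGR5-ECD against the control. Their summed level was 126 to 129 FPKM in controls, 293 to 501 in LGR5-ECD and 347 to 571 in Rspo1 libraries. What that difference contributes to the comparisons with the control was not tested. None of the 6 calls held in all 15 alternatives: the highest adjusted p was 0.247 for Bmp7 and 0.236 for Cdkn1a, both without control 2, 0.192 for Junb without control 2, 0.0818 for Fos in Rspo1 and 0.110 for Fos in LGR5-ECD, both without a filter, and 0.176 for Atoh8 without control 2.

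Among all tested genes, those whose centred log2(FPKM + 1) values over the 8 libraries were nearest to Id2 were Zfp292, Wbscr27 and Sema3b, with mean absolute differences of 0.137, 0.147 and 0.157. Their log2 changes from LGR5-ECD to Rspo1 were 0.92, 1.19 and 1.07, a direction that the choice by likeness to Id2 fixes. Nearest to Smad7 were S100a10, Trim56 and Nqo2, with mean absolute differences of 0.108, 0.113 and 0.114. Their log2 changes were -0.76, -0.87 and -0.80, fixed in direction in the same way. None of these genes near Smad7 passed (limma adjusted p = 0.053, 0.0508 and 0.0659). The match describes 8 libraries in 3 groups and says nothing of shared control.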

How the data were processed

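RNA from sorted GFP-positive jejunal cells was measured in 8 libraries, with the 2 control columns read as GFP-positive. The values are FPKM as the authors deposited them; the build mm9 and the tools Cufflinks, TopHat, HTSeq and DESeq2 are named, with no role, in the submitters' processing notes. No source used here gives their versions, the annotation or the strand setting. On the reading of the control columns as GFP-positive, the 2 GFP-negative control samples were not analysed here.

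From 24510 rows, 27 with a date for a symbol were left out, 391 identical repeats dropped and 89 symbols on several rows summed. Ratios of values under 0.3 FPKM lay on steps of whole reads (tolerance 0.04, log2) for at most 35.5% of genes, so whole reads could not be had from the table and no count model was fitted. The log2(FPKM + 1) values of 11454 genes (at least 1 FPKM in at least 2 libraries) were fitted with limma 3.58.1 (eBayes with trend, R 4.3.3) over 3 groups, two-sided, with 5 residual degrees of freedom, Benjamini-Hochberg adjustment over all genes and a threshold of 0.05. The design's pseudocount, scaling, filter, sample and replicate alternatives were run. The fit was also run on simulated independent normal values, with the same spread for a gene in all groups. Such data do not carry the uneven control libraries. Members, lists and tests were chosen with earlier results of these data known. The naming rule took all members, every called pathway gene, every tested signalling SMAD, Lgr5, Krt20, Olfm4 and the 3 genes nearest to each called member; other genes named were chosen after their values were seen. P-values measure only the spread between these samples. Python 3.11.15, pandas 2.3.3, NumPy 2.4.6 and matplotlib 3.10.9 made tables and figures.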

Additional observations from a re-analysis of the deposited data

How the results depend on the processing

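The count of members called between Rspo1 and LGR5-ECD, 2 as reported, was 1 with a pseudocount of 0.1, 1 with a filter at 5 FPKM, where Smad7 was no longer tested, 1 with a replicate block and 0 without a filter. Leaving out each library gave 0 to 2, and 0 to 1 for either comparison with the control. Calls over all genes between Rspo1 and LGR5-ECD, 968 as reported, numbered 586 with the replicate block and 414 to 1035 without 1 library. For Rspo1 against control (143) they numbered 74 with a pseudocount of 0.1, 29 without a filter, 293 with quantile normalization, 217 with 2 groups in the fit, 89 without the trend and 24 to 456 without 1 library. For LGR5-ECD against control (82) they numbered 12, 4, 4 and 30 with that pseudocount, no filter, 2 groups and no trend, and 0 to 175 without 1 library. The share of higher calls moved from 53.8% to 40.6% for Rspo1 against control and from 62.2% to 49.4% for LGR5-ECD against control under median-ratio scaling. Pathway genes called between Rspo1 and LGR5-ECD numbered 8 to 13 without 1 library (12 as reported), 0 to 8 for Rspo1 against control (4) and 0 to 4 for LGR5-ECD against control (2).

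Signs turned only for genes that did not pass. Without 1 library the log2 change ran from -0.24 to 0.20 for Acvr1, -0.18 to 0.36 for Smad6 (-0.062 with quantile normalization) and -0.077 to 0.11 for Smad1 (-0.064 with median-ratio scaling, -0.015 with quantile normalization), all between Rspo1 and LGR5-ECD. Between Rspo1 and control it ran from -0.27 to 0.094 for Id1, -0.38 to 0.18 for Id3, -0.65 to 0.39 for Smad6 and -0.10 to 0.89 for Smad1. Between LGR5-ECD and control it ran from -0.80 to 0.24 for Smad6, -0.11 to 0.88 for Smad1 and -0.067 to 0.50 for Smad3. The cause was not tested.

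Same-numbered Rspo1 and LGR5-ECD libraries did not deviate together over all genes (correlations -0.0188, -0.0225 and -0.0477). Whether the numbers mark a shared litter, batch or day is not stated, and such correlations cannot exclude it. With the replicate block Smad7 had a limma adjusted p of 0.113. The control columns carry no sample number, so no paired fit was made for them. With 1 control left out, the other is assumed to vary like the treated groups.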
